A study of Mus musculus with 16 samples.

Results

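Zscan4 and Tcstv are 2 families of mouse genes that are transcribed in a burst when the genome of the 2-cell embryo is switched on. In cultures of mouse embryonic stem cells (ESCs) they mark a small and changing fraction of cells that pass through a state resembling that embryo, called the 2C-like state. Full-length ZSCAN4 proteins carry a SCAN domain and zinc fingers, bind DNA and are known for a role in telomere maintenance, whereas the TCSTV proteins are small and less well characterised. The members described here are all genes of the ESC table whose symbol begins with Zscan4 or Tcstv, 11 of 23083 genes: 9 Zscan4 genes and 2 Tcstv genes. These are also all 11 such genes in the GENCODE M21 annotation of the mouse genome. They were chosen by their levels in the same ESC libraries, so the levels are given as a description, without a test.

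The series holds 16 RNA sequencing libraries of total RNA from mouse cells, in 8 groups of 2, made to study transcriptional adaptation, in which a mutated gene is accompanied by altered expression of other genes. The 3 ESC groups used here were wild type, an Actb knockout (Actb K.O., KO below) and an Actb full locus deletion (locus deletion below), with 2 libraries each. Actb encodes beta-actin. No other allele, treatment, strain or clone is given in the labels for these cells, nor do they say whether the pair of libraries in a group stems from separate cultures. The p-values therefore cover only the spread between libraries, which may be technical. Embryonic fibroblasts (MEFs; wild type, Actg1 K.O. and Actg1 full locus deletion) and kidney fibroblasts (MKFs; Kindlin-2 floxed and Kindlin-2 K.O.) were used for 1 check.

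Levels are called normalised read counts here: whole numbers that, judged from the values, are read counts scaled per library by the authors and rounded. The values of an ESC library summed to between 16022043 and 16529089. Actb stood at 36364 and 34140 in the wild-type libraries, at 23650 and 22707 in the KO and at 2372 and 2336 in the locus deletion. Pluripotency markers, among them Pou5f1 and Sox2, summed to between 56285 and 64726 in all libraries. In the limma test described below 0 of 8 passed in any comparison, near the 2.32 to 6 percent of all genes called per direction. At an unadjusted p below 0.05, 2 were higher and 1 lower in KO against wild type. These counts were 2 and 0 in locus deletion against wild type, and 0 and 0 in KO against locus deletion. Without overlap, 3 markers (Pou5f1 among them) were higher and 1 lower than wild type in each mutant. Between 23.2 and 25.0 percent of all genes were so in each direction. With a replicate block, Dppa5a was lower in KO (adjusted p = 0.0386) and Esrrb higher in the locus deletion (adjusted p = 0.035) than in wild type.

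The Zscan4 genes form a cluster on chromosome 7 of GRCm38, from 10794242 to 11614112. On the plus strand lie Zscan4c, Zscan4f, Zscan4-ps2 and Zscan4-ps3, and on the minus strand Zscan4a, Zscan4b, Zscan4-ps1, Zscan4d and Zscan4e. Zscan4c, Zscan4d and Zscan4f are known to encode the full-length protein, and Zscan4c is the form most studied in ESCs, whereas Zscan4d is the form most studied in 2-cell embryos. The deposited table lists Zscan4a as an unprocessed pseudogene and the other 8 as protein coding, although 3 carry a pseudogene symbol. Tcstv1 (119893388 to 119894785, minus strand) and Tcstv3 (120316878 to 120318178, plus strand) lie on chromosome 13.

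The upstream regions of the Zscan4 genes show how alike the copies are. RefSeq (GRCm38.p6) gave the 250 bases before the transcription start for 4 of the 11 members, and they are printed 5′ to 3′ on the strand of the gene. Capitals mark TATAAA, the core of a TATA box, and TGATTCAA, which forms part of the site that DUX, an activator of 2-cell genes, is known to bind.
Zscan4b (chr7:10905051-10905300, minus strand): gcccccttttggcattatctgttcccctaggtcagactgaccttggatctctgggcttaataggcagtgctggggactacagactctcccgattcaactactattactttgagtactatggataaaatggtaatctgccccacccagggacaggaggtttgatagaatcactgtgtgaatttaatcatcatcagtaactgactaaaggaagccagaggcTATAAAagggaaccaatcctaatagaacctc
Zscan4c (chr7:11005495-11005744, plus strand): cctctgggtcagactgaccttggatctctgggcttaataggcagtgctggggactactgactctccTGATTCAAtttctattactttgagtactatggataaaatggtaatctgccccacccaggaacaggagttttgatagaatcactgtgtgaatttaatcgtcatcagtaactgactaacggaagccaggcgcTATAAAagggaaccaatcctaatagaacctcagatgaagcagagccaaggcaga
Zscan4d (chr7:11166149-11166398, minus strand): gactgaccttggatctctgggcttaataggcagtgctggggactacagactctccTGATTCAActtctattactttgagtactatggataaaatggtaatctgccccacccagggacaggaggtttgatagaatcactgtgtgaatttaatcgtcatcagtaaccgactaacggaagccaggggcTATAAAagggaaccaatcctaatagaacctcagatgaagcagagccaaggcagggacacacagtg
Zscan4f (chr7:11397665-11397914, plus strand): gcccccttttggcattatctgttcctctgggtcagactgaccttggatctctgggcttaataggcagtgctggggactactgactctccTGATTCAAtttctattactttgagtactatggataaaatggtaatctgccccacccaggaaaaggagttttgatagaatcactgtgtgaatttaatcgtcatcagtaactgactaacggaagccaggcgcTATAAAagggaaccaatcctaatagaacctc

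Aligned in pairs without internal gaps, these regions were identical at between 94.7 percent (Zscan4b and Zscan4c) and 99.6 percent (Zscan4c and Zscan4f) of the aligned bases. TATAAA was present in all 4 regions, against 12.4 percent of 32851 RefSeq upstream regions of the same length, searched on both strands. TGATTCAA was present in 3 of the 4, all but Zscan4b, against 0.539 percent of all regions, and its letters were chosen after the sequences had been seen. Among 14 genes of the 2-cell list described below that have such a region, TGATTCAA was present in 1 and TATAAA in 3. A longer form of the DUX motif was present in 0 of the 4 and 0 of the 14 regions, against 0.0304 percent of all regions. These matches describe the letters and are not evidence of binding.

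The transcripts overlap in sequence as well. Of all 50-base stretches of a gene's transcripts, the share found in no other gene ran from 9.88 percent (Zscan4b) to 51.6 percent (Zscan4-ps1) among the Zscan4 genes, with 50.4 percent for Zscan4d and 14.5 percent for Zscan4c. Zscan4b shared 85.3 percent of its stretches with Zscan4e, and Zscan4f shared 77.1 percent with Zscan4-ps2. Tcstv1 (85 percent) and Tcstv3 (68.6 percent) had more sequence of their own. How reads that match several genes were counted is not given in the sources used here, so the split of reads among the Zscan4 genes is uncertain, and the family sum is the safer value.

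**Figure D1:**
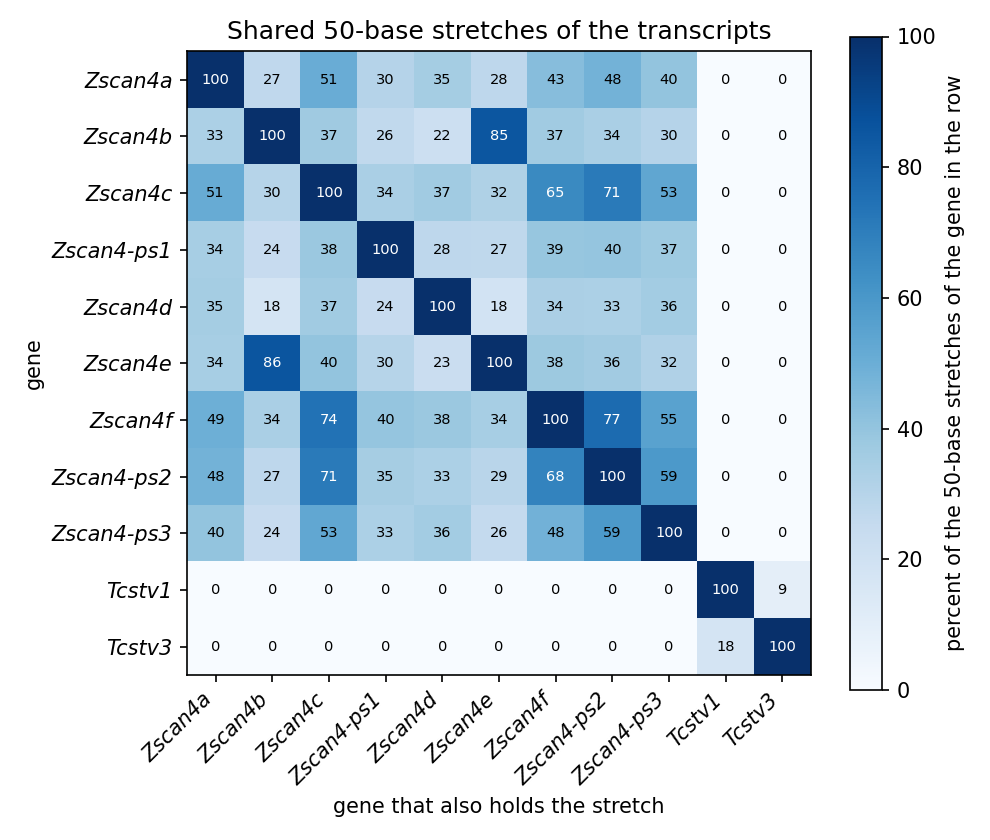
Percent of the 50-base transcript stretches of the gene in each row that also occur in the gene of each column, from GENCODE M21 transcripts. The Zscan4 genes share between them up to 85.8 percent of their stretches (Zscan4e with Zscan4b), whereas no stretch is shared between a Zscan4 and a Tcstv gene.

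As a family, Zscan4 RNA was highest in Actb KO ESCs, intermediate in wild type and lowest in the locus deletion. The 9 genes summed to 162 and 172 in the wild-type libraries, to 451 and 492 in the KO libraries and to 21 and 14 in the locus deletion libraries. No library of 1 group reached the level of another group. The means were 167 ± 7.07 (SD, n = 2), 471.5 ± 29 (SD, n = 2) and 17.5 ± 4.95 (SD, n = 2). The KO mean was 2.82 times the wild-type mean, the wild-type mean was 9.54 times the locus deletion mean, and the KO mean was 26.9 times the locus deletion mean. In bulk RNA, a change in the number of 2C-like cells and a change in RNA per cell cannot be told apart.

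Zscan4d had the highest level of the family in KO and wild type. It stood at 41 and 45 in wild type, 138 and 137 in KO and 4 and 1 in the locus deletion. Zscan4c, the copy best known from ESCs, stood at 22 and 26, at 49 and 65, and at 2 and 8 in the same order. The full-length form Zscan4f was low throughout, at 5 and 3 in wild type, 26 and 14 in KO and 1 and 0 in the locus deletion. For all 3, the groups did not overlap.

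Zscan4a and Zscan4e, which are known to encode shorter proteins where they are translated, stood at levels near those of Zscan4c. Zscan4a was at 22 and 19 in wild type, at 62 in both KO libraries and at 1 in both locus deletion libraries. Zscan4e was at 15 and 23, at 57 and 71, and at 6 and 0. Zscan4b, also a short form, was at 5 and 3, at 18 and 16, and at 0 and 1. In these 3 genes too, every KO library lay above every wild-type library, and every wild-type library above every locus deletion library.

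The 3 copies with pseudogene symbols followed the same order. Zscan4-ps1 stood at 18 and 17 in wild type, 36 and 34 in KO and 1 and 2 in the locus deletion. Zscan4-ps2 stood at 13 and 15, at 25 and 44, and at 3 and 1. Zscan4-ps3 stood at 21 in both wild-type libraries, at 40 and 49 in KO and at 3 and 0 in the locus deletion. The KO libraries of Zscan4-ps2 were further apart than those of the other 2 copies, and no groups overlapped.

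**Figure D2:**
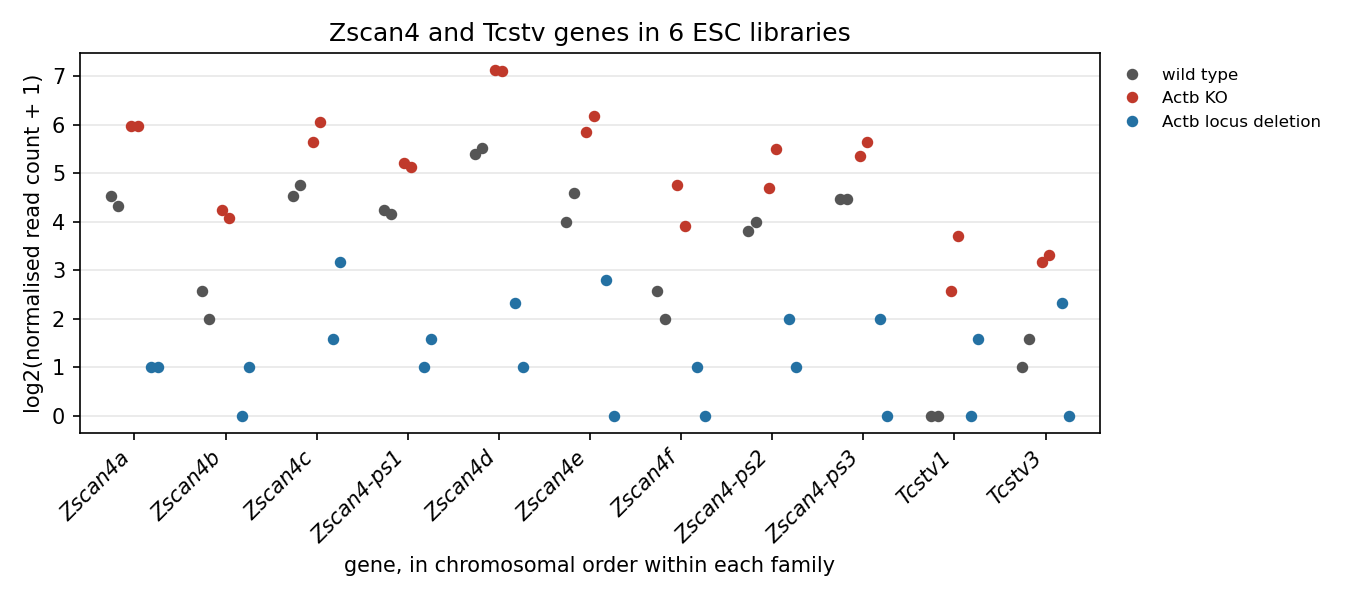
Level of each of the 11 members on the log2(normalised read count + 1) scale, with 1 point per ESC library, coloured by group. For all 9 Zscan4 genes the KO points lie above the wild-type points and the locus deletion points below them, whereas the locus deletion points of Tcstv1 and Tcstv3 spread over the wild-type levels.

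Over the 9 Zscan4 genes, the difference on the log2(value + 1) scale between KO and wild type ranged from 0.96 (Zscan4-ps1) to 2.04 (Zscan4f), with a median of 1.55. Groups did not overlap for 9 of 9, while 23.2 percent of all 23054 genes with a mean of at least 1 had both KO libraries above both wild-type libraries. Between locus deletion and wild type the difference ranged from −3.80 (Zscan4d) to −1.79 (Zscan4b and Zscan4f), with a median of −2.89 and no overlap for 9 of 9 (25.0 percent of all genes had both locus deletion libraries below both wild-type libraries). Between KO and locus deletion it ranged from 3.47 (Zscan4c) to 5.45 (Zscan4d), with a median of 3.88 (no overlap for 9 of 9, against 23.4 percent of all genes). Since the members were chosen on these contrasts, nothing is read from these shares. At the locus deletion values of 0 to 8, counting error is large relative to the level.

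Compared per length, as value per 1000 exon bases, Zscan4d led in KO (60.7 and 60.3) and in wild type (18 and 19.8), without overlap with the next gene in either group. In KO it was followed by Zscan4e (31.8 and 39.6), Zscan4a (27.2 in both libraries) and Zscan4c (21.5 and 28.6), of which Zscan4a and Zscan4c overlapped. Zscan4-ps3, Zscan4-ps1, Zscan4-ps2, Zscan4f and Zscan4b came next, and each overlapped the one after it. In wild type Zscan4f (2.55 and 1.53) and Zscan4b (2.77 and 1.66) were also last and overlapped. In the locus deletion every gene overlapped its neighbour in the order, which began with Zscan4c at 0.879 and 3.51. The shared sequence given above limits these levels per length too.

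The share of each copy in the family sum is a description too, since reads may be split among copies. Zscan4d made up 25.3 and 26.2 percent of the sum in wild type and 30.6 and 27.8 percent in KO. Zscan4-ps3 made up 13.0 and 12.2 percent in wild type and 8.87 and 9.96 percent in KO. Zscan4c made up 13.6 and 15.1 percent against 10.9 and 13.2 percent. With sums of 21 and 14, shares in the locus deletion were not read.

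The 2 Tcstv genes were near the detection limit. Tcstv1 stood at 0 in both wild-type libraries, at 5 and 12 in KO and at 0 and 2 in the locus deletion. Tcstv3 stood at 1 and 2, at 8 and 9, and at 4 and 0. Both genes were higher in KO than in either other group without overlap (23.2 and 23.4 percent of all genes were higher in KO than in wild type and than in the locus deletion in this way). Locus deletion and wild type overlapped for both. The family summed to 1 and 2 in wild type, 13 and 21 in KO and 4 and 2 in the locus deletion. On the log2(sum + 1) scale, KO differed from wild type by 2.84 and from the locus deletion by 2.18, and locus deletion from wild type by 0.66. Every gene of the table reaches at least 4 in some library, a level that Tcstv1 reached in the KO libraries alone and Tcstv3 in both KO libraries and 1 locus deletion library.

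Between Tcstv1 and Tcstv3 lie 21 other annotated genes, of which 6 are in the table. The protein names in the table place Gm20767 in a family named for variable expression at the 2-cell stage. It stood at 2 and 7 in wild type, 21 and 22 in KO and 1 and 0 in the locus deletion. BC147527 stood at 4 and 3, at 10 and 16, and at 0 and 1. Gm21761 stood at 4 and 3, at 14 and 22, and at 3 and 3. Gm21818 stood at 5 and 5, at 8 and 6, and at 0 and 0. It shared 19.5 percent of its 50-base stretches with Tcstv1, and Gm20767 shared 4.06 percent. Gm20767 and AF067061, another of the 6, are counted in the 2-cell list below as well.

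In limma fitted to all ESC genes, with a call at an adjusted p below 0.05, these 4 genes were higher in KO than in the locus deletion (adjusted p = 0.0153, 0.0267, 0.0444 and 0.0345, in the order given), 4 of 6 where 2.56 percent of all genes were called higher. Gm21818 fell in the locus deletion against wild type (−2.58, adjusted p = 0.0353; 1 of 6, against 6 percent of all genes). In KO against wild type limma called 0 of 6 (3 were higher and 0 lower at an unadjusted p below 0.05). Of 12 genes within 500000 bases outside the span, 2 were higher in KO than in the locus deletion. These were Hmgcs1, an enzyme of cholesterol synthesis, and the chemokine Ccl28 (adjusted p = 0.00606 and 0.038, limma). Neither rose in KO against wild type (means of 2633.5 in wild type and 2631.5 in KO for Hmgcs1, 7 and 6.5 for Ccl28). Both fell in the locus deletion against wild type (adjusted p = 0.00337 and 0.0192, limma; 2 of 12, against 6 percent of all genes). In the span of the Zscan4 cluster only 1 of 44 other annotated genes is in the table, Gm45551, at 2 and 3 in wild type, 1 and 6 in KO and 0 in both locus deletion libraries. Of 2 genes within 500000 bases outside it, the zinc finger gene Zik1 stood at 347 and 374 in wild type, 238 and 280 in KO and 256 and 223 in the locus deletion, and fell in the locus deletion (−0.59, adjusted p = 0.0367).

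Other genes of the 2-cell embryo were followed with a list of 58 genes that holds neither family, of which 39 are in the ESC table. Dux itself is among those not listed there. The list was written with results of these data known, and many of its genes are close copies too. Every gene of the table reaches at least 4 in some library, and some list genes do so in KO alone, among them Zfp352 and Gm2035. For such genes a higher level in KO is partly set by this limit. Zfp352 and Gm2035 are among the 21 counted next. Against the locus deletion, 21 of 39 were higher in KO and 0 were lower, where 2.56 and 2.32 percent of all 23054 genes were called (limma, with 33 higher and 1 lower at an unadjusted p below 0.05). The median difference was 2.64, and over all genes it was 0.00. Blocking on the replicate number gave 24 higher and 0 lower. The percentages of all genes, here and below, hold for the main fit at an adjusted p. No such share is given at an unadjusted p or under the block, so those counts cannot be set against it. Of the 21 genes, 15 have at least 50 percent of their 50-base stretches to themselves, as do 28 of all 39.

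Several genes of the list resemble Eif1a, a translation initiation factor, and they did not all pass. Gm2016 was higher in KO than in the locus deletion (limma, adjusted p = 0.015), whereas Gm2022, Gm4027 and Gm2056 did not pass (adjusted p = 0.148, 0.141 and 0.357). Gm2035 passed too, but its direction was partly set by the limit given above, so its p-value is not read. Gm8300 stood at 22 and 21 in wild type, 96 and 79 in KO and 3 and 5 in the locus deletion, without overlap. Between KO and locus deletion it differed by 4.17 (SE 0.334, adjusted p = 0.000762). Gm5662 stood at 50 and 39, at 140 and 97, and at 11 and 2 (4.29, adjusted p = 0.00582). Gm5039 stood at 41 and 45, at 140 and 123, and at 15 and 14 (3.09, adjusted p = 0.00058). In Gm8300, Gm5662 and Gm5039 no groups overlapped.

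The Usp17l genes, which encode deubiquitinating enzymes, showed the same order of groups. Usp17lc stood at 6 and 15 in wild type, 52 and 56 in KO and 2 and 0 in the locus deletion, a difference of 4.99 between KO and locus deletion (adjusted p = 0.00515). Usp17lb (35.5 ± 0.707 against 2 ± 1.41; SD, n = 2) and Usp17le (49.5 ± 7.78 against 5.5 ± 0.707; SD, n = 2) were also higher in KO than in the locus deletion (adjusted p = 0.00457 and 0.00323, limma). Usp17la and Usp17ld passed as well. Zfp352, a zinc finger gene of the early embryo, was at 2 and 1 in wild type, 16 and 14 in KO and 1 and 0 in the locus deletion. The difference between KO and locus deletion was 3.50. It passed, but its direction was partly set by the limit given above, so its p-value is not read.

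Against wild type, fewer list genes passed. In the locus deletion 7 of 39 fell and 1 rose, where 6 and 5.19 percent of all genes were called lower and higher, with a median difference of −1.57 (0.01 over all genes). Those that fell were Pramef25, Gm5662, Usp17lc, Usp17lb, Gm8300, Usp17le and Gm5039, with differences from −3.00 (Pramef25) to −1.5 (Gm5039) on the log2(value + 1) scale. Zfp750 rose, from 50 ± 15.6 to 96.5 ± 9.19 (SD, n = 2; adjusted p = 0.0417). Blocking on the replicate number gave 9 lower and 2 higher.

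In the KO 2 of 39 rose and 0 fell in limma, where 2.44 percent of all genes were called in each direction (19 higher and 0 lower at an unadjusted p below 0.05), with a median difference of 1.16 (0.00 over all genes). Gm8300 rose by 1.97 (adjusted p = 0.0166) and Gm5039 by 1.59 (adjusted p = 0.00812). Blocking on the replicate number gave 5 higher and 0 lower. In 34 of the 39 genes the mean was highest in KO and lowest in the locus deletion, an order found in 13.2 percent of all tested genes. For list genes that are in the table through their KO levels alone, a highest mean in KO was fixed beforehand, so these shares are a description. The same order held for 9 of the 11 members, all of them Zscan4 genes. The comparisons share groups, so they are not independent.

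Few calls were made from fewer libraries. With any 1 library of a comparison left out, 0 list genes were called higher in KO than in wild type, between 0 and 2 lower in the locus deletion than in wild type, and between 0 and 3 higher in KO than in the locus deletion (limma; at an unadjusted p below 0.05, between 9 and 15, between 11 and 16, and between 27 and 31). The lone library is then assumed to vary like the other groups.

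**Figure D3:**
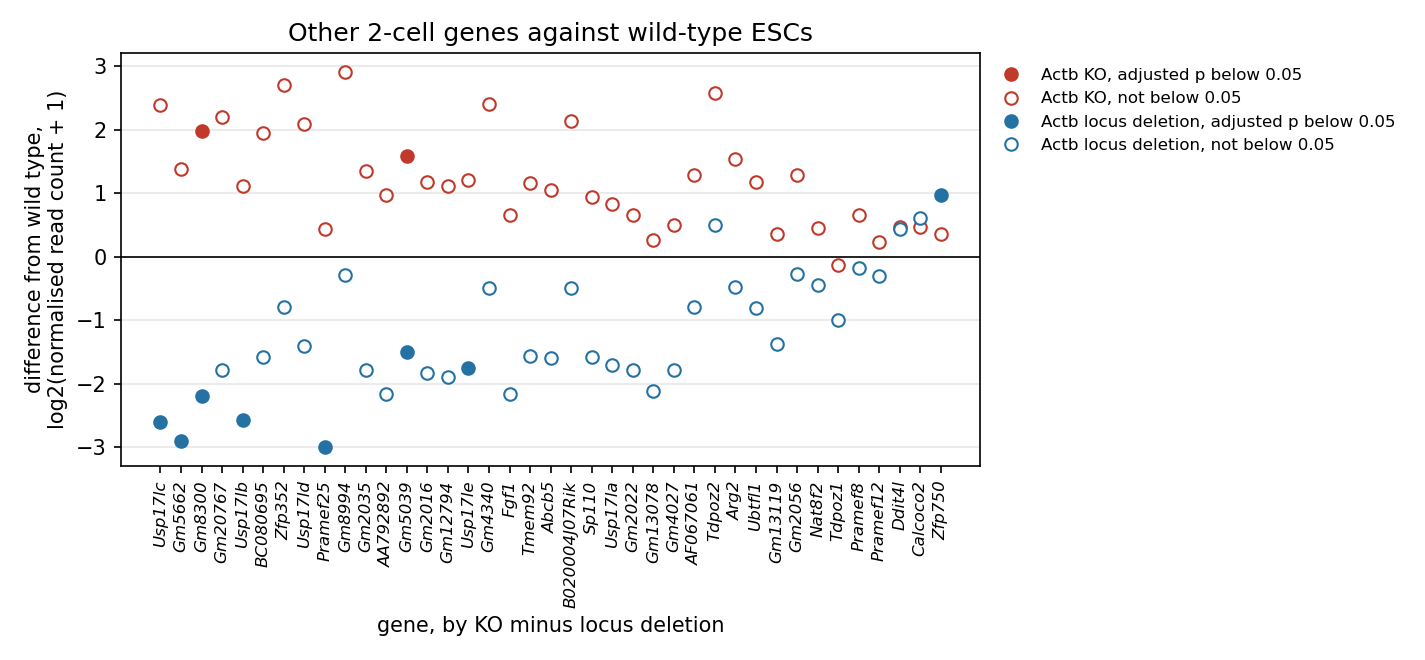
Difference from wild-type ESCs on the log2(normalised read count + 1) scale for the 39 other 2-cell genes in the table, in KO (red) and locus deletion (blue), ordered by KO minus locus deletion, with filled points at an adjusted p below 0.05 in limma. Most red points lie above 0 and most blue points below it (38 and 35 of 39). Both colours are measured against the same 2 wild-type libraries.

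Factors known to hold the 2C-like state in check were followed as a second list. Of 33 repressors, 4 were higher and 0 lower in KO (limma; 14 and 1 at an unadjusted p below 0.05), and 5 were higher and 1 lower in the locus deletion, where 2.44 and 2.44 percent, and 5.19 and 6 percent, of all genes were called. Blocking on the replicate number gave 6 and 0, and 10 and 2, with no share of all genes under the block to set beside them. The median difference was 0.26 in KO and 0.14 in the locus deletion, against 0.00 and 0.01 over all genes.

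Lin28a, an RNA-binding protein that acts with nucleolin on Dux, had the same order of groups as Zscan4. It stood at 1127 and 974 in wild type, 2609 and 2332 in KO and 795 and 657 in the locus deletion. It rose in KO by 1.23 (SE 0.134, adjusted p = 0.00284) and fell in the locus deletion by 0.54 (SE 0.134, adjusted p = 0.0377), both without overlap. Myc stood at 22 and 16, at 235 and 184, and at 50 and 61, and rose in both mutants (adjusted p = 0.000437 and 0.00736). The chromatin remodeller Atrx rose in both (0.52 and 1.04, adjusted p = 0.0267 and 0.00087), as did the DNA demethylase Tet2 (0.45 and 0.63, adjusted p = 0.0437 and 0.00716). Ep400 and E2f6 rose in the locus deletion (adjusted p = 0.0267 and 0.0396). Ncl, nucleolin, had the highest mean of the list and ranged from 54576 to 90507 over the 6 libraries, and every pair of groups overlapped. Trim28, the corepressor of retroviral elements and named here after its values were seen, was at 15470 ± 461 in wild type, 20228 ± 904 in KO and 19701 ± 1620 in the locus deletion (SD, n = 2) and did not pass (limma, adjusted p = 0.0757 and 0.0675), but did with a replicate block (adjusted p = 0.0374 and 0.0346).

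Of 7 activators, 2 were higher and 0 lower in KO, and likewise 2 and 0 in the locus deletion, where 2.44 and 5.19 percent of all genes were called higher (limma; 5 higher and 1 lower in KO, and 4 and 0 in the locus deletion, at an unadjusted p below 0.05). Dppa2, which binds the Dux promoter with its partner Dppa4, stood at 467 and 572 in wild type, 879 and 960 in KO and 682 and 763 in the locus deletion, and rose in KO by 0.83 (adjusted p = 0.0143). Gata2 stood at 58 and 62, at 200 and 195, and at 50 and 37, and rose in KO by 1.70 (adjusted p = 0.00448). Trp53 rose in the locus deletion, from 1431 ± 15.6 to 2128.5 ± 127 (SD, n = 2; adjusted p = 0.0093). Dppa3, a maternal factor of the early embryo, stood at 166 and 95 in wild type, 69 and 44 in KO and 692 and 764 in the locus deletion. It rose in the locus deletion by 2.52 (adjusted p = 0.00169), where the Zscan4 genes were lowest, and with a replicate block it fell in KO (−1.17, adjusted p = 0.0152, against 0.0593 without). Blocking on the replicate number gave 4 activators higher and 1 lower in KO, and 4 higher in the locus deletion, again without a share of all genes under the block.

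Between KO and locus deletion, Lin28a (1.77, adjusted p = 0.000663), Myc (1.89, adjusted p = 0.00561) and Gata2 (2.17, adjusted p = 0.00175) were higher in KO, and Atrx (−0.52, adjusted p = 0.0251) and Dppa3 (−3.70, adjusted p = 0.000673) were lower. With 1 library left out, 0 repressors were called in KO against wild type and 0 or 1 in the other comparisons, and 0 activators in either mutant against wild type (limma; between 6 and 12 repressors and 3 and 5 activators were higher in KO at an unadjusted p below 0.05). Lin28a then had an adjusted p of 0.124 to 0.176 in KO against wild type and of 0.0411 to 0.134 in KO against locus deletion. Gata2 had 0.124 to 0.185 and 0.0463 to 0.158, and Dppa3 in the locus deletion against wild type 0.0593 to 0.071.

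**Figure D4:**
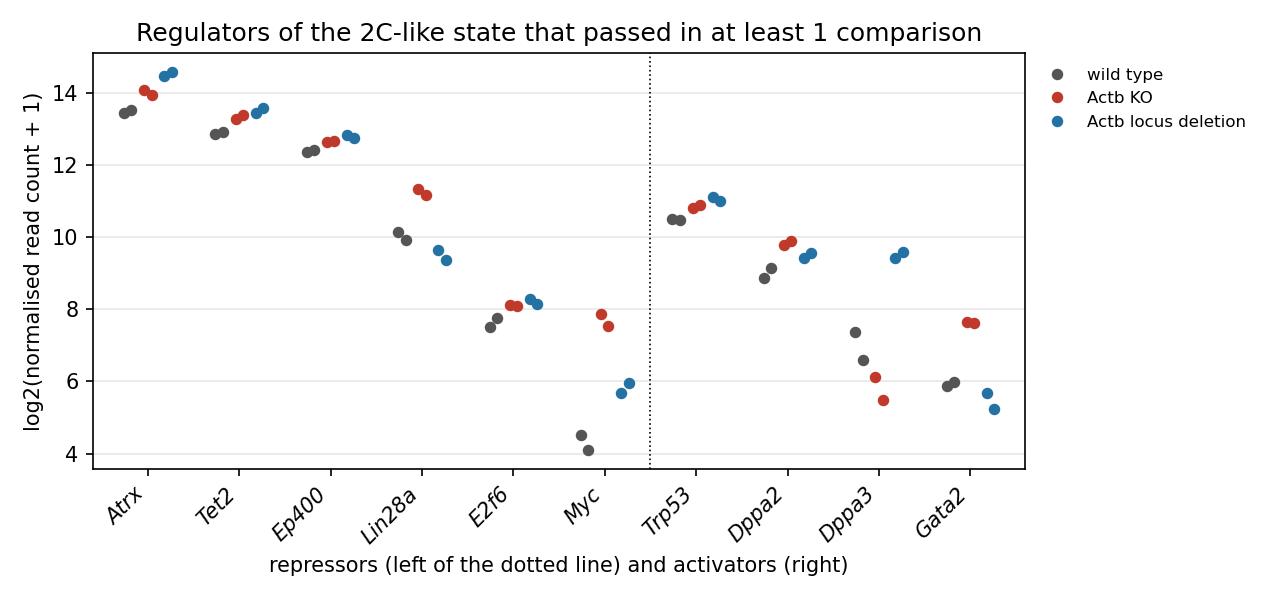
Levels of the 6 repressors (left) and 4 activators (right) of the 2C-like state that passed the limma test in at least 1 comparison, on the log2(normalised read count + 1) scale, with 1 point per ESC library. Lin28a and Gata2 are highest in KO and lowest in the locus deletion, whereas Dppa3 is highest in the locus deletion and lowest in KO.

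Of 16384 other genes with a mean of at least 10, the 8 whose pattern over the 6 libraries was nearest to the Zscan4 sum were Phlda2, Gm16478, Gjb2, Gm21319, Krt18, Gm5662, Gm8300 and Usp17lc, by root mean square distance of centred log2(value + 1). Phlda2, an imprinted growth regulator of the placenta, was nearest (distance 0.311, Pearson r = 0.994 over 6 libraries), at 8 and 9 in wild type, 26 and 21 in KO and 1 and 0 in the locus deletion. Krt18, a keratin of simple epithelia, stood at 88 and 60, at 339 and 302, and at 15 and 15 (distance 0.488, r = 0.971). Gjb2, a connexin, stood at 7 and 9, at 38 and 46, and at 1 and 1. Of the 17 genes of the 2-cell list with a mean of at least 10, 10 were among the nearest 100 of the 16384 genes. Both the members and that list were chosen with results of these data known, so this count is a description.

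The pattern of the Tcstv sum had other neighbours: Gm11218, Peg10, Id1, Lrp2, Gm13619, Anxa3, Nrk and Nt5e. Peg10, an imprinted gene derived from a retrotransposon, stood at 1124 and 1341 in wild type, 7622 and 8603 in KO and 1450 and 1275 in the locus deletion (distance 0.319, r = 0.968 over 6 libraries). Id1, an inhibitor of basic helix-loop-helix factors, stood at 18 and 24, at 96 and 122, and at 25 and 27. Of the 17 list genes, 1 was among the nearest 100. The Tcstv sum rests on few reads, and these likenesses describe 6 libraries only.

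Markers of other cell types also differed between the groups, in both directions within a list. The 6 primitive endoderm markers summed to 112 and 113 in wild type, 203 and 176 in KO and 121 and 105 in the locus deletion. In KO, Dab2 (27 and 39 to 138 and 115, adjusted p = 0.00483) and Sox7 (0 and 0 to 5 and 9, adjusted p = 0.0276) rose and Gata4 (34 and 28 to 8 and 7, adjusted p = 0.0234) fell. In the locus deletion Sox7 rose (28 and 17, adjusted p = 0.00275) and Gata4 fell (10 and 10, adjusted p = 0.0286). Pdgfra also fell there with a replicate block (limma, adjusted p = 0.0383, against 0.0644 without). The 6 trophoblast markers summed to 1737 and 1893, 1333 and 1450, and 2062 and 1875, a sum that is mostly Tfap2c, which fell in KO (1545 and 1632 to 929 and 1005, adjusted p = 0.0101). Eomes and Cdx2 rose in KO (130 and 138 to 230 and 231, adjusted p = 0.0312, and 1 and 3 to 16 and 31, adjusted p = 0.0178). In the locus deletion Eomes fell (59 and 64, adjusted p = 0.00415) and Cdx2 rose (13 and 13, adjusted p = 0.0268). With a replicate block Gata3 was higher in KO than in wild type (limma, adjusted p = 0.0341, against 0.107 without). It was then also higher in KO than in the locus deletion (limma, adjusted p = 0.0138, against 0.055 without). By mean, Eomes (1.89 in KO against locus deletion, adjusted p = 0.00085, limma), Gata3 and Krt7 had the order of groups seen for Zscan4. Tfap2c (−0.91 in KO against locus deletion, adjusted p = 0.004, limma) and Elf5 had the reverse order, and Cdx2 was lowest in wild type. In each of the primitive endoderm and trophoblast lists, limma called 2 higher and 1 lower in KO and 1 and 1 in the locus deletion. Over all genes, 2.44 percent were called in each direction in KO, and 5.19 and 6 percent in the locus deletion. In KO against locus deletion, 1 endoderm marker was higher (Dab2, 1.23, adjusted p = 0.0256, limma) and 0 lower. Of the trophoblast markers 1 was higher and 1 lower, where 2.56 and 2.32 percent of all genes were called. Of 6 fibroblast markers, Col1a1 and Thy1 are in the table and summed to 36 and 35, 18 and 26, and 18 and 17 (Thy1 fell in the locus deletion, adjusted p = 0.036, limma), whereas Col1a2, Col3a1, Postn and Twist2 are not listed. Their part in the levels of Zscan4 and Tcstv was not tested.

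In fibroblasts only Zscan4d of the 11 members is listed. In MEFs it stood at 0 in both wild-type libraries, at 3 and 1 in Actg1 K.O. and at 0 and 5 in the Actg1 full locus deletion. In MKFs it stood at 0 in both floxed libraries and at 6 and 3 in Kindlin-2 K.O. The other 10 members are not in those tables, which hold genes that reach at least 4 (MEFs) or 5 (MKFs) in some library. Zscan4d reached that level in mutant libraries alone, so its contrast with the controls is set by this limit. The 3 tables were normalised separately, and these levels are not set against those of ESCs.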

How the data were processed

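RNA was sequenced from total RNA with a stranded kit, per the labels' protocols. Tools named in the submitters' processing notes, without a stated role, are STAR 2.5.3a, DESeq2 1.14.1, featureCounts 1.6.0, FastQC and Subread, and the build is mm10 (GRCm38). Values were deposited by the authors as a whole-number score. They look like read counts scaled by library and then rounded, and were therefore not tested as counts. Symbols are those of the tables, and positions, exon lengths and transcripts are from GENCODE M21.

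Limma 3.58.1 in R 4.3.3 was fitted to log2(value + 1) of the 23054 ESC genes with a mean of at least 1, all 3 groups in 1 fit, with trended moderation and Benjamini-Hochberg adjustment over all genes (3 residual and 5.4 prior degrees of freedom), and was tested on simulated data. Libraries of the same number deviated together (correlations of 0.678, 0.349 and 0.492 across 11369 genes), a pairing that comes from the values. Results under a replicate block are therefore given for the gene lists where they change a count. No share of all genes is given for the block, for fits with a library left out or at an unadjusted p. The percentages of all genes called belong to the main fit at an adjusted p. The members and the 8 gene lists were chosen with earlier results of these data known. Genes named from the lists are the 8 largest by absolute difference among those called in any comparison, and for regulators also the highest mean. Other genes named were chosen after their values were seen. The 8 genes most like each family sum are named by distance. Pairwise alignment used Biopython 1.88.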

Additional observations from a re-analysis of the deposited data

Results flagged for a closer look

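Zscan4d was listed at 0 in the control fibroblasts and above 0 in some libraries of each mutant group, in tables that entered no comparison. Those tables hold only genes that reach at least 4 (MEFs) or 5 (MKFs) in some library. A gene at 0 in the controls is therefore listed only if a mutant library is high, so the direction was fixed beforehand. Its mean was 2 in Actg1 K.O. MEFs and 2.5 in MEFs with the Actg1 full locus deletion, against 0 in wild-type MEFs. The mean of 2.5 rests on 1 library at 5, the other being at 0. In Kindlin-2 K.O. MKFs its mean was 4.5, against 0 in floxed MKFs. These differences were not tested, and each rests on a few reads.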

How the results depend on the processing

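Counts of the 2-cell list genes depended most on the number of libraries. With 1 library left out, genes higher in KO than in wild type numbered 0 (2 with all libraries), genes lower in the locus deletion than in wild type 0 to 2 (7), genes higher in it 0 (1), and genes higher in KO than in the locus deletion 0 to 3 (21). In fits of only the 2 groups compared, these counts were 1 lower and 0 higher in the locus deletion against wild type and 3 higher in KO against locus deletion. With a pseudocount of 5, 5 were higher in KO and 2 in the locus deletion than in wild type, and with a minimum mean of 10, or with either rescaling of the libraries, 2 in the locus deletion. With a replicate block, 5 were higher in KO and 2 in the locus deletion than in wild type, and this moved no other count of 2-cell list genes by over 1.5 times. The block was not applied to the family sums, which have no test.

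No family sum changed direction. With a pseudocount of 5 the Tcstv difference was 1.74 (KO against wild type) and 1.45 (KO against locus deletion), against 2.84 and 2.18. The mean over the single Zscan4 genes was −2.75 (locus deletion against wild type) and 4.22 (KO against locus deletion), against −3.21 and 4.70. The other 96 alternative values were within 1 SD of the main difference or within 1.5 times the main count, a wide range for low values. The Tcstv difference between locus deletion and wild type was 0.29 to 1.03 with 1 library left out, 0.29 with a pseudocount of 5 and 0.33 as the mean over both genes, against 0.66. Genes higher in KO than in the locus deletion numbered 14 of the 17 list genes with a minimum mean of 10, against 21 of 39 in the main fit. Restricted to the 28 list genes with at least 50 percent of 50-base stretches of their own, chosen after seeing the data, they numbered 15. Genes lower in the locus deletion than in wild type then numbered 5. With libraries rescaled after leaving out 4 genes that each exceed 1 percent of some library, 467 of all genes were higher and 786 lower in KO than in wild type (563 and 563 as deposited). Low values limit the precision of Tcstv and of all locus deletion levels.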

Other observations

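ZSCAN4 is known for telomere maintenance, and a list of 16 genes of telomeres and meiotic recombination was followed, 15 of them in the ESC table. In KO against wild type 0 rose and 1 fell (limma; 1 higher and 7 lower at an unadjusted p below 0.05, and 0 and 4 with a replicate block), where 2.44 percent of all genes were called in each direction. In locus deletion against wild type 1 rose and 4 fell, where 5.19 and 6 percent of all genes were called (2 and 4 with a replicate block). Against the locus deletion, 0 were higher and 2 lower in KO (0 and 3 with a replicate block), where 2.56 and 2.32 percent of all genes were called. These percentages hold for the main fit at an adjusted p, not for the block or an unadjusted p. Hormad1, a protein of the meiotic chromosome axis, fell in KO and rose in the locus deletion, at 530 and 578 in wild type, 393 and 358 in KO and 1041 and 1029 in the locus deletion (adjusted p = 0.0327 and 0.00277). Smc1b, a meiotic cohesin, was at 145 and 137, at 91 and 87, and at 176 and 193, and was lower in KO than in the locus deletion (−1.04, adjusted p = 0.00917). Both genes were highest where the Zscan4 genes were lowest. The means of Terc, Blm, Rad50 and Terf2, described next, were lowest there too. They were highest in wild type, however, and so did not have the Zscan4 order.

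Terc, the RNA of telomerase, fell in the locus deletion from 174.5 ± 4.95 to 74.5 ± 20.5 (SD, n = 2; adjusted p = 0.00902) and was at 106 ± 8.49 in KO (adjusted p = 0.103, and 0.047 with a replicate block). The helicase Blm (−0.39, adjusted p = 0.0295), Rad50 (−0.60, adjusted p = 0.0343) and the shelterin gene Terf2 (−0.41, adjusted p = 0.0395) also fell in the locus deletion. Their means were 3167.5, 2260.5 and 631.5 in KO, against 3889.5, 2960.5 and 822.5 in wild type. These differences in KO did not pass (limma, adjusted p = 0.114, 0.178 and 0.0805). Spo11 is not listed in the ESC table.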
